A study of Homo sapiens with 9 samples.

Results

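AP-1 is a family of dimeric transcription factors, and the 10 genes described here are its FOS members (FOS, FOSB, FOSL1 and FOSL2), its JUN members (JUN, JUNB and JUND) and the related bZIP factors ATF3, BATF3 and JDP2. They were taken as a fixed list of symbols, and each symbol matched 1 identifier present in both deposited count tables, 10 of the 52165 identifiers that the tables share. The levels measured are those of polyadenylated RNA. AP-1 proteins bind DNA as pairs held together by a leucine zipper: JUN proteins pair with each other or with FOS proteins, whereas FOS proteins need a JUN partner. FOS, FOSB, JUN, JUNB and ATF3 are textbook immediate-early genes, switched on within minutes by growth factors or stress. FOSL1, also called FRA-1, accumulates under sustained ERK signalling and is often abundant in squamous carcinoma cells.

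Both lines studied, Kyse150 and TE11, are human and derive from squamous cell carcinoma of the esophagus. There were 2 libraries of Kyse150 with an shRNA against KDM2A (shKDM2A), 2 of Kyse150 with a control shRNA (shNC), 2 labelled as TE11 with shKDM2A, and 3 of TE11 with shNC. KDM2A is a histone demethylase that binds unmethylated CpG-rich DNA. The shRNAs were delivered by lentivirus, and the labels name neither a further KDM2A shRNA nor what was repeated between replicates. Other effects of the shRNA therefore cannot be told apart from those of less KDM2A, and the spread behind each p-value is that among libraries, part of which may be technical.

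Libraries of Kyse150 held 6052883 to 7167055 gene counts, and those of TE11 8457767 to 12073098. KDM2A, the targeted gene, stood at 107 and 104 CPM (counts scaled to library size, within each line) in the Kyse150 shKDM2A libraries, against 172 and 175 CPM in the Kyse150 shNC libraries. In TE11 it stood at 126 and 140 CPM in the libraries labelled shKDM2A, against 116 to 120 CPM in shNC, so that KDM2A goes against the label of these libraries and every TE11 direction below is between the libraries as labelled. All 13 squamous epithelial markers examined had counts in each group. They summed to 2360 to 2380 CPM in Kyse150 shKDM2A and 2580 to 2640 CPM in Kyse150 shNC. In TE11 they summed to 2190 to 2250 CPM in labelled shKDM2A and 6120 to 6650 CPM in shNC. SOX2 averaged only 0.0556 ± 0.0787 CPM in labelled TE11 shKDM2A (SD, n = 2), against 21.3 ± 1.08 CPM in TE11 shNC (SD, n = 3). By the edgeR test, 11 of the 13 fell and 2 rose in labelled TE11 shKDM2A, beside 42.2% and 35.9% of all genes tested. The summed level of 10 leukocyte markers was at most 4.85 CPM in any library, and PTPRC, which all leukocytes carry, had 0 counts in all 9. Summed levels of 10 fibroblast markers were 14.2 to 15.5 CPM in Kyse150 shKDM2A against 7.65 to 8.16 CPM in Kyse150 shNC, and 3.38 to 5.67 CPM in labelled TE11 shKDM2A against 28.9 to 32.3 CPM in TE11 shNC, with DCN at 0 in all groups but TE11 shNC. Endothelial markers (7 listed in Kyse150, 8 in TE11) summed to 40.1 to 40.3 CPM in Kyse150 shKDM2A against 16.1 to 20.8 CPM in Kyse150 shNC. In TE11 they summed to 12.8 CPM in labelled shKDM2A against 67.9 to 76.4 CPM in shNC. Most of each endothelial sum was 1 gene, EGFL7. Its mean was 36.3 CPM in Kyse150 shKDM2A, 15.8 in Kyse150 shNC, 11.2 in labelled TE11 shKDM2A and 63 in TE11 shNC. Columnar epithelial markers summed to 7260 to 7830 CPM in Kyse150 shKDM2A against 6450 to 6540 CPM in Kyse150 shNC, and to 6150 to 6360 CPM in labelled TE11 shKDM2A against 3570 to 3960 CPM in TE11 shNC, with CDX1 and CDX2 at 0 in every group. That sum is mostly KRT8 and KRT18, while KRT7 averaged 6.22 ± 1.24 CPM in labelled TE11 shKDM2A (SD, n = 2) and 873 ± 26.7 CPM in TE11 shNC (SD, n = 3). Mitochondrial genes took 6.75% and 6.64% of gene counts in Kyse150 shKDM2A, against 5.56% and 5.65% in Kyse150 shNC, and fragments on no gene 44.4% and 44.5% against 43.8% and 43.7%. In every TE11 library mitochondrial genes took 0% of gene counts, so the library sizes behind CPM include them in Kyse150 only. The part of these markers and shares in the AP-1 results was not tested. In bulk RNA, fewer cells that express a gene and less of its RNA per cell cannot be told apart.

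The promoters of the 4 members FOS, JUN, JUNB and JUND are shown because FOS, JUNB and JUND were higher together in Kyse150 shKDM2A and lower together in labelled TE11 shKDM2A, while JUN did neither. JDP2 moved like the first 3, and its 3 windows are described but not printed. Each is the stretch of 250 bases before the RefSeq start site on GRCh38.p14, written 5′ to 3′ on the gene's strand. Capitals mark the CRE (TGACGTCA), its core TGACG, the TRE-like site TGACATCA and the TATA box TATAAA, each searched on both strands.
FOS promoter, chr14:75278578-75278827, forward strand: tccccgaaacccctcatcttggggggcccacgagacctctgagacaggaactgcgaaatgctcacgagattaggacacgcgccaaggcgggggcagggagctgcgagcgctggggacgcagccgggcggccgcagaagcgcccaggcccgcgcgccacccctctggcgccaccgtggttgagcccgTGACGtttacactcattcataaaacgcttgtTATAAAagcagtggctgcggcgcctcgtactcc
JUN promoter, chr1:58784048-58784297, reverse strand: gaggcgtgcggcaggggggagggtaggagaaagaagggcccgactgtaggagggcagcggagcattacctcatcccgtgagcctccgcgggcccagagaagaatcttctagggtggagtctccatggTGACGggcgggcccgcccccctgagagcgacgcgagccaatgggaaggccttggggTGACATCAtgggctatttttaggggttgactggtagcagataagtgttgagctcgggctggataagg
JUNB promoter, chr19:12791236-12791485, forward strand: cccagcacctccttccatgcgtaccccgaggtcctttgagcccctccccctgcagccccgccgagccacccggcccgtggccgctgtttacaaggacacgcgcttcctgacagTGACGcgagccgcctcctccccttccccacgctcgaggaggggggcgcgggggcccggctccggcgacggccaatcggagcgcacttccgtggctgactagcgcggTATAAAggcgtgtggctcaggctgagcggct
JUND promoter, chr19:18281623-18281872, reverse strand: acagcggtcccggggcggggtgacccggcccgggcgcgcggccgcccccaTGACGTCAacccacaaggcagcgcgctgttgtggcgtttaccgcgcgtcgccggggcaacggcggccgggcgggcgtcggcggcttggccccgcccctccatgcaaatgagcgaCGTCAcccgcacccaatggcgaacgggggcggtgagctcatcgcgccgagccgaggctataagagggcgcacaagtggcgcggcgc

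FOS and JUNB each held a CRE core (from base -64 to -60 and from -137 to -133, counted from the start site) followed by a TATA box (from -33 to -28 and from -31 to -26). JUN held no TATAAA in the window searched, but a CRE core from -123 to -119 and TGACATCA from -67 to -60. TATAAA was also absent from JUND and from the 3 windows of JDP2, so its absence is not particular to JUN. JUND held the full CRE from -200 to -193, which contains the core on both strands, and a further core from -86 to -82. Over all 35116 RefSeq windows of 300 bases (250 before and 50 after a start site), 24.6% held the core, 1.85% the full CRE, 2.61% TGACATCA, 11.5% TATAAA and 4.95% the TRE TGAGTCA. In that window FOSL2 held TGACTCA, the TRE on the other strand, from base 5 to 11, and CRE cores from -201 to -197 and from -66 to -62. FOSB, whose Kyse150 change did not pass the test, had the layout of FOS and JUNB. Its CRE core ran from -60 to -56 and its TATA box from -30 to -25. The CArG box, the binding site of serum response factor, was in none of the 11 windows found for 8 members and in 1.29% of all windows. Bases more than 250 before a start site were not searched, so a CArG box further upstream of any member would have been missed. CpG pairs numbered 30 in the FOS window, 16 in JUN, 29 in JUNB and 49 in JUND, against a median of 14 over all windows. The 3 JDP2 windows held 26, 36 and 49, and 1 of them, that with 36, held a CRE core. The 2 ATF3 windows held 4 and 1 CpG pairs, below the median, and no CRE core. The window with 4 held TGACATCA from -123 to -116, and the window with 1 held TATAAA from -230 to -225. The gene annotation lists 7 transcript starts for ATF3, and any start outside these windows was not examined. FOSL1 and BATF3 are named only. These matches describe letters and were not measured as binding.

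FOSL1 was the member with the highest level per length in 2 of the 4 groups, and it changed in opposite directions in the 2 lines. It fell to 0.409 of control in Kyse150 shKDM2A and was 8.23-fold higher in labelled TE11 shKDM2A. FOS did the reverse, rising 2.69-fold in Kyse150 shKDM2A and falling to 0.481 of control in labelled TE11 shKDM2A. FOSL2 was lower in both lines, and FOSB was lower in labelled TE11 shKDM2A, while its Kyse150 change did not pass the test.

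FOSL1 (ENSG00000175592) lies on chromosome 11 from 65892049 to 65900573, on the reverse strand of GRCh38 by GENCODE release 29. Its level was 146 and 132 CPM in Kyse150 shKDM2A, against 335 and 346 CPM in Kyse150 shNC. The groups stand well apart (log2 fold change -1.29, SE 0.06; edgeR quasi-likelihood adjusted p = 4.26e-15). In TE11 it was 364 and 365 CPM in the libraries labelled shKDM2A, against 43.4, 44.8 and 44.7 CPM in shNC (log2 fold change 3.04, SE 0.07; edgeR adjusted p = 5.84e-36). Every labelled TE11 shKDM2A library thus lay above every TE11 control, and beside the Kyse150 controls rather than the TE11 controls. FOSL2 (ENSG00000075426; chromosome 2, 28392448 to 28417312, forward strand), also called FRA-2, was flatter. It stood at 127 and 126 CPM in Kyse150 shKDM2A against 150 and 146 CPM in Kyse150 shNC, without overlap (log2 fold change -0.23, SE 0.07; edgeR adjusted p = 0.00821). That call was lost without Kyse150 shNC replicate 1 (log2 fold change -0.22, edgeR adjusted p = 0.0503). In TE11 FOSL2 was 90.2 and 87.6 CPM in labelled shKDM2A against 198, 187 and 189 CPM in shNC, or 0.464 of control (edgeR adjusted p = 1.16e-18).

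FOS (ENSG00000170345; chromosome 14, 75278774 to 75282230, forward strand), the founding member of the family, was low throughout, on 12 to 65 counts per library. Kyse150 shKDM2A held 4.17 and 6.79 CPM, against 2.27 and 1.75 CPM in Kyse150 shNC (log2 fold change 1.43, SE 0.36; edgeR adjusted p = 0.00165). Without Kyse150 shKDM2A replicate 2 the call was lost (1.04, edgeR adjusted p = 0.0715). Both shKDM2A libraries lay above both controls, with replicate 2 the higher. Labelled TE11 shKDM2A held 1.86 and 3.12 CPM, against 5.76, 4.63 and 5.26 CPM in TE11 shNC, and these groups do not overlap either (log2 fold change -1.06, SE 0.28; edgeR adjusted p = 0.000637). FOSB (ENSG00000125740; chromosome 19, 45467995 to 45475179, forward strand) is a close relative of FOS. It stood at 4.32 and 3.07 CPM in Kyse150 shKDM2A against 3.68 and 1.89 CPM in Kyse150 shNC, with overlapping groups and a fold change of 1.33 (95% interval 0.784 to 2.24; edgeR adjusted p = 0.383). In TE11 it fell to 3.84 and 2.89 CPM in labelled shKDM2A, against 5.14, 6.72 and 6.77 CPM in shNC (log2 fold change -0.89, SE 0.24; edgeR adjusted p = 0.00117).

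**Figure D1:**
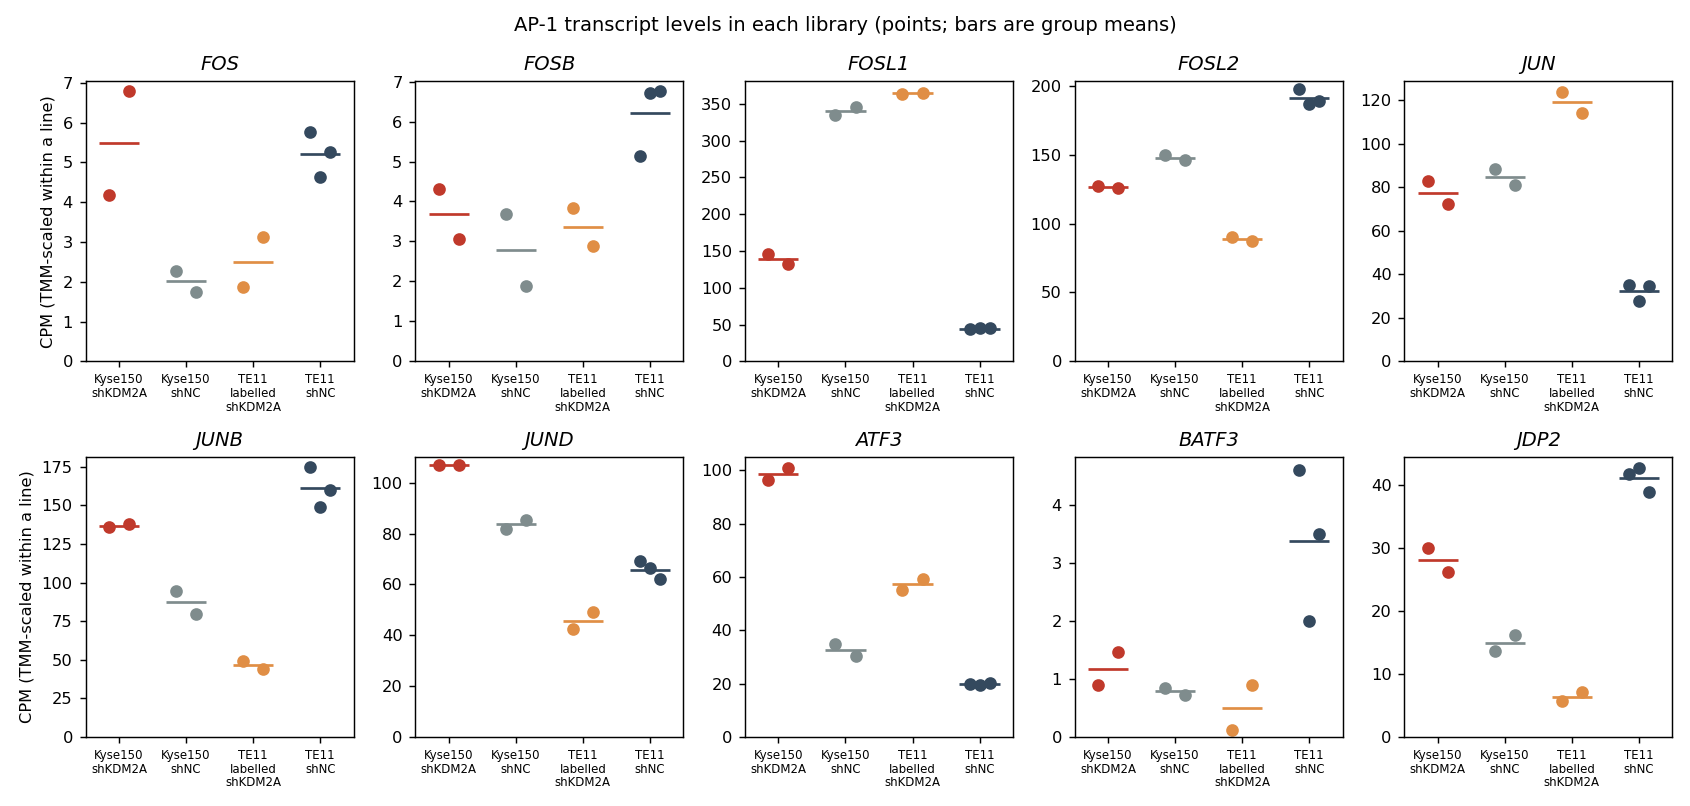
Level of each AP-1 transcript in CPM (vertical axes from 0, scaled within a line) in each of the 9 libraries (points), with group means (bars). FOSL1 stands at 364 and 365 CPM in labelled TE11 shKDM2A, near Kyse150 shNC at 335 and 346 CPM and far above TE11 shNC at 43.4 to 44.8 CPM, while ATF3 is higher in both shKDM2A groups than in their own controls.

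Among the JUN genes, JUNB and JUND rose in Kyse150 shKDM2A by 1.57-fold and 1.28-fold and fell in labelled TE11 shKDM2A to 0.289 and 0.693 of control. JUN did not pass the test in Kyse150 and was 3.66-fold higher in labelled TE11 shKDM2A. JUN is the strongest transcriptional activator of the 3, JUNB can oppose it, and JUND is the one least tied to mitogens.

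JUN (ENSG00000177606; chromosome 1, 58780788 to 58784327, reverse strand), a gene without introns, stood at 82.7 and 72.3 CPM in Kyse150 shKDM2A against 88.5 and 81.2 CPM in Kyse150 shNC. These groups overlap, and the fold change was 0.915 (95% interval 0.806 to 1.04; edgeR adjusted p = 0.239). In TE11 the libraries labelled shKDM2A held 124 and 114 CPM, against 35, 27.6 and 34.6 CPM in shNC, with no overlap (log2 fold change 1.87, SE 0.09; edgeR adjusted p = 8.29e-24). JUNB (ENSG00000171223; chromosome 19, 12791496 to 12793315, forward strand) held 136 and 138 CPM in Kyse150 shKDM2A against 94.7 and 80 CPM in Kyse150 shNC (log2 fold change 0.65, SE 0.08; edgeR adjusted p = 2.08e-07). It held 49.5 and 43.9 CPM in labelled TE11 shKDM2A against 175, 149 and 160 CPM in TE11 shNC (log2 fold change -1.79, SE 0.08; edgeR adjusted p = 1.42e-23). JUNB was thus the higher of the groups in Kyse150 shKDM2A and the lower in labelled TE11 shKDM2A, with no overlap in either line. Of its exon bases, 14.2% are shared with HOOK2 on the other strand. The strand setting of the counting is unknown here, so JUNB counts are uncertain to that extent. JUND (ENSG00000130522; chromosome 19, 18279760 to 18281622, reverse strand) showed the same pattern at a smaller size. It held 107 and 107 CPM in Kyse150 shKDM2A against 81.8 and 85.4 CPM in Kyse150 shNC (log2 fold change 0.36, SE 0.08; edgeR adjusted p = 0.000429). In TE11 it held 42.3 and 49 CPM in labelled shKDM2A against 69.1, 66.4 and 62.1 CPM in shNC (log2 fold change -0.53, SE 0.09; edgeR adjusted p = 7.59e-07).

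ATF3 was the member that rose alike in the comparisons of both lines, 3.01-fold in Kyse150 and 2.87-fold in TE11. ATF3 is a stress-induced factor that can repress as a homodimer. JDP2, a repressor that pairs with JUN proteins, rose 1.89-fold in Kyse150 shKDM2A and fell to 0.156 of control in labelled TE11 shKDM2A. BATF3, best known from dendritic cells, was close to the limit of detection.

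ATF3 (ENSG00000162772; chromosome 1, 212565334 to 212620777, forward strand) held 96.4 and 101 CPM in Kyse150 shKDM2A against 35 and 30.5 CPM in Kyse150 shNC (log2 fold change 1.59, SE 0.10; edgeR adjusted p = 3.51e-13). It held 55.3 and 59.4 CPM in labelled TE11 shKDM2A against 19.8, 19.7 and 20.4 CPM in TE11 shNC (log2 fold change 1.52, SE 0.10; edgeR adjusted p = 2.29e-18). No shKDM2A library overlapped a control of its line. JDP2 (ENSG00000140044; chromosome 14, 75427716 to 75474111, forward strand) held 30.1 and 26.2 CPM in Kyse150 shKDM2A against 13.7 and 16.2 CPM in Kyse150 shNC (log2 fold change 0.91, SE 0.16; edgeR adjusted p = 2.42e-05). In TE11 it held 5.7 and 7.12 CPM in labelled shKDM2A against 41.8, 42.7 and 38.9 CPM in shNC (log2 fold change -2.68, SE 0.14; edgeR adjusted p = 9.13e-22). The labelled TE11 libraries thus held the lowest JDP2 levels of all 9. BATF3 (ENSG00000123685; chromosome 1, 212686418 to 212699985, reverse strand) had 6 and 9 counts in Kyse150 shKDM2A against 6 and 5 in Kyse150 shNC and did not pass the filter on low counts there; without a filter it was tested there (log2 fold change 0.54, SE 0.68; edgeR adjusted p = 0.643). It had 1 and 8 counts in labelled TE11 shKDM2A against 52, 23 and 42 in TE11 shNC (log2 fold change -2.69, SE 0.50; edgeR adjusted p = 4.84e-06). The size of this fall rests on few counts: it was -1.90 without labelled shKDM2A replicate 1 and -4.72 without replicate 2.

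Counted over the family, 5 of 9 tested members rose and 2 fell in Kyse150 shKDM2A, where 24.8% of all 14060 genes tested rose and 23.3% fell (48.2% called in all). The median log2 fold change of the 9 was 0.41, beside 0.00 over all genes tested. In labelled TE11 shKDM2A, 3 of 10 members rose and 7 fell, where 35.9% of 16453 genes tested rose and 42.2% fell. With 78.1% of genes called in that comparison, 10 called members out of 10 is not far from the background. The median of the 10 was -0.97, beside -0.09 over all genes tested. In Kyse150, 7 of the 9 tested members had groups that did not overlap, near the 73.3% of all genes for which this held (5 with shKDM2A higher, beside 37.1% of genes, and 2 with it lower, beside 36.2%). In TE11 the groups of all 10 members did not overlap, as for 84.3% of all genes (3 higher, beside 39.1%, and 7 lower, beside 45.2%).

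**Figure D2:**
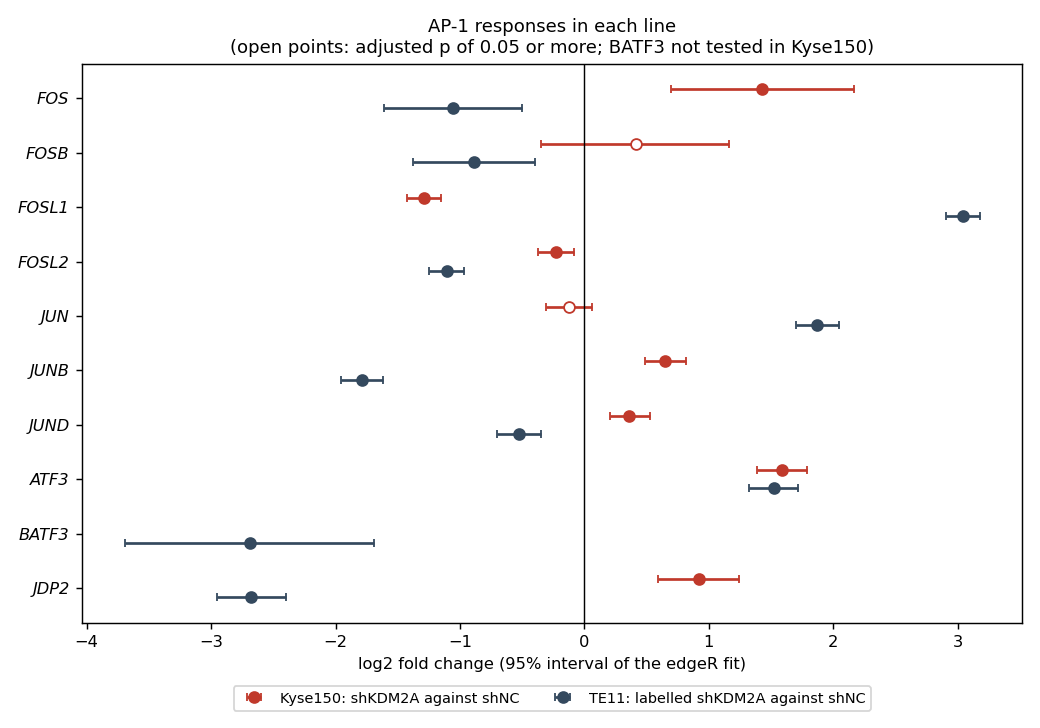
Log2 fold change of each AP-1 member between libraries labelled shKDM2A and shNC in Kyse150 (red) and TE11 (dark), with the 95% interval of the edgeR fit; open points did not pass an adjusted p of 0.05. FOSL1 lies at -1.29 in Kyse150 and at 3.04 in TE11, JUNB at 0.65 and -1.79, and the 2 ATF3 points at 1.59 and 1.52.

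The difference between the responses was tested in 1 fit of all 9 libraries over the genes listed in both tables. It was called for 9 of 10 members, where 66.9% of 15895 genes tested were called. FOSL1 had the largest difference, with a Kyse150 response lower than the TE11 response by a log2 value of -4.35 (SE 0.10; edgeR adjusted p = 1.38e-44), and JUN followed in that direction at -2.03 (SE 0.13). The Kyse150 response was the higher for JDP2 (3.57, SE 0.21), FOS (2.46, SE 0.46) and JUNB (2.42, SE 0.12), all with edgeR adjusted p of 3.47e-06 or less. It was also the higher for BATF3 (3.22), FOSB (1.27), JUND (0.87) and FOSL2 (0.85). The BATF3 difference was 5.22 without labelled TE11 shKDM2A replicate 2 and 2.43 without replicate 1. FOSB lost its call without Kyse150 shKDM2A replicate 1 (0.99), Kyse150 shNC replicate 2 (0.87, against 1.82 without Kyse150 shNC replicate 1) or labelled TE11 shKDM2A replicate 2 (1.07; edgeR adjusted p = 0.0502 to 0.107 over these). For ATF3 the ratio of the responses was 1.03 (95% interval 0.846 to 1.26; edgeR adjusted p = 0.831).

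Setting the groups side by side gives the levels that lie under these contrasts. On log2(CPM + 1) means, with 1 scaling over all 9 libraries, the labelled TE11 shKDM2A libraries were nearer to the Kyse150 controls than to the TE11 controls for 8 of the 9 members tested in both lines, JUND being the exception. The same held for 64.1% of the 13276 genes compared. The tables of the lines were counted with different annotations, so levels were not tested across lines. FOS held 1.86 and 3.12 CPM in labelled TE11 shKDM2A beside 2.27 and 1.75 CPM in Kyse150 shNC, and JDP2 5.7 and 7.12 CPM beside 13.7 and 16.2 CPM. Summed squamous markers and AP-1 levels differed between labelled TE11 shKDM2A and TE11 shNC. KDM2A was 1.12-fold in labelled TE11 shKDM2A, against its label. The part of the markers and of KDM2A in the AP-1 results was not tested.

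Levels of different genes were compared per length, as CPM per kilobase of merged exon. In Kyse150 shKDM2A the order was JUNB (75.4 ± 0.683), FOSL1 (73.8 ± 5.21), JUND (57.6 ± 0.0838), ATF3 (24.4 ± 0.731), JUN (21.9 ± 2.08), FOSL2 (17.6 ± 0.101), JDP2 (4.52 ± 0.443), FOS (1.69 ± 0.572), FOSB (0.666 ± 0.159) and BATF3 (0.433 ± 0.146), with the ranges of JUNB and FOSL1 overlapping (CPM per kilobase, SD, n = 2). In Kyse150 shNC FOSL1 led at 180 ± 3.87, followed by JUNB at 48 ± 5.72, JUND at 44.9 ± 1.34, JUN at 24 ± 1.47, FOSL2 at 20.7 ± 0.391 and ATF3 at 8.1 ± 0.791 (SD, n = 2), where JUNB and JUND overlap. FOSL1 thus stood clear of the JUN genes in the Kyse150 controls and level with JUNB in the knockdowns. In labelled TE11 shKDM2A FOSL1 again led at 193 ± 0.581, ahead of JUN at 33.6 ± 1.93, JUNB at 25.7 ± 2.14, JUND at 24.5 ± 2.55, ATF3 at 14.2 ± 0.723 and FOSL2 at 12.4 ± 0.261 (SD, n = 2), with JUNB and JUND overlapping. In TE11 shNC JUNB led at 88.6 ± 7.35, then JUND at 35.4 ± 1.9, FOSL2 at 26.8 ± 0.789, FOSL1 at 23.5 ± 0.409, JUN at 9.15 ± 1.18 and JDP2 at 6.6 ± 0.314 (SD, n = 3), with no overlap between these neighbours. FOS, FOSB and BATF3 had the 3 lowest means in every group, at no more than 2.1 CPM per kilobase in any library. In labelled TE11 shKDM2A the ranges of FOS (0.769 ± 0.274) and JDP2 (1.03 ± 0.161) overlap (CPM per kilobase, SD, n = 2).

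The make-up of the FOS and JUN families therefore differed between the groups. FOSL1 made up 79.7% and 77.6% of the length-scaled FOS family level in Kyse150 shKDM2A, against 88.9% and 89.6% in Kyse150 shNC. The whole FOS family summed to 97.2 and 90.3 CPM per kilobase in Kyse150 shKDM2A, against 200 and 204 in Kyse150 shNC. FOSL1 made up 93.3% and 93.4% in labelled TE11 shKDM2A, against 43.1% to 45.2% in TE11 shNC, where FOSL2 held 49.8% to 51.8%. The JUN family summed to 156 and 154 CPM per kilobase in Kyse150 shKDM2A against 121 and 113 in Kyse150 shNC, and to 84.8 and 82.6 in labelled TE11 shKDM2A against 125 to 143 in TE11 shNC. JUN took 15% and 13.3% of the JUN family in Kyse150 shKDM2A, against 20.7% and 20.3% in Kyse150 shNC. It took 41.2% and 39% in labelled TE11 shKDM2A, against 6.23% to 7.46% in TE11 shNC, where JUNB held 65.3% to 67.2%. These shares describe RNA and carry no test.

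**Figure D3:**
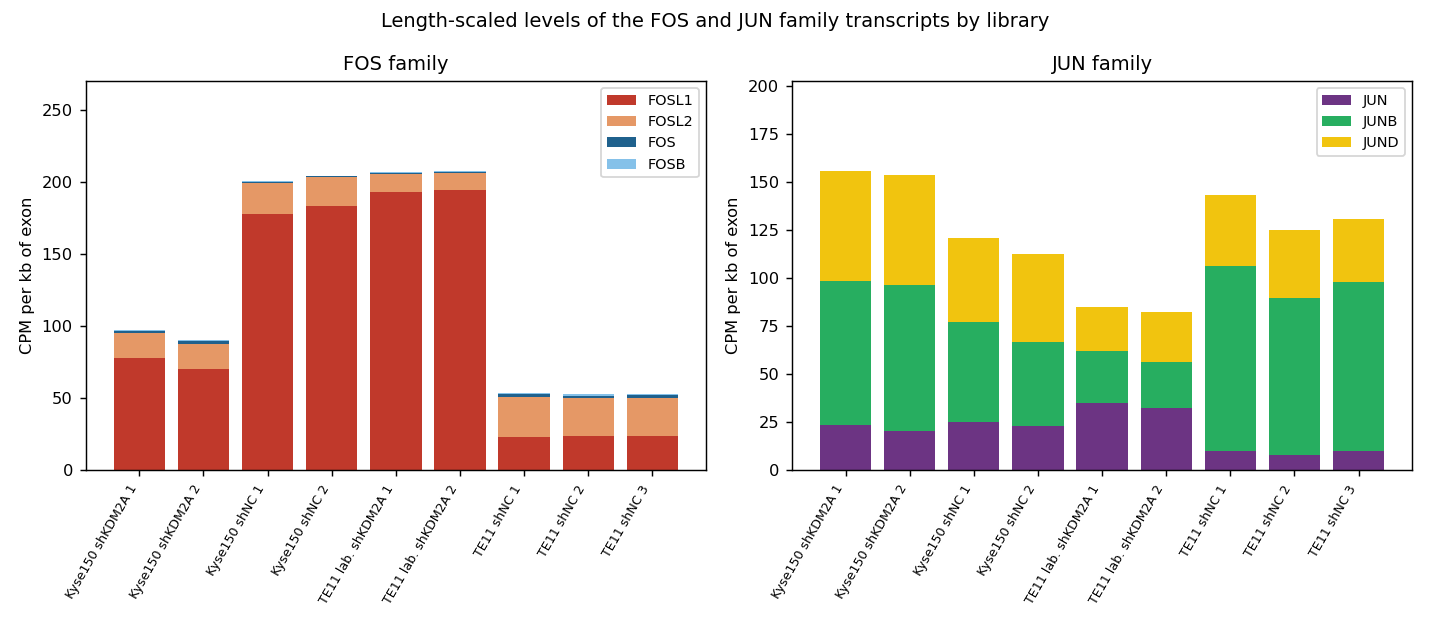
Length-scaled levels (CPM per kilobase of exon) of the FOS family (left) and the JUN family (right), stacked by member, in each of the 9 libraries. The FOS family stack is 97.2 and 90.3 in Kyse150 shKDM2A against 200 and 204 in Kyse150 shNC, and about the same height in labelled TE11 shKDM2A (207 in both) as in those Kyse150 controls.

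For the 2 members with the highest mean level per length over the 9 libraries, FOSL1 and JUNB, the genes with the most similar profiles were looked up among 12235 others tested in both lines. FTSJ3, RRP9 and CSTF2 followed FOSL1 most closely (Pearson r of log2(CPM + 1) over 9 libraries, 0.997, 0.997 and 0.996). SLC25A29, AFDN and NEURL1B followed JUNB (0.994 each). These libraries share lines and tables, so that the 9 points fall into 4 groups.

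Several other bZIP factors can pair with AP-1 proteins. Of 24 tested in Kyse150, 15 rose and 2 fell (median log2 fold change 0.37), beside 24.8% and 23.3% of all genes. Of 26 tested in TE11, 4 rose and 15 fell in labelled shKDM2A (median -0.34), beside 35.9% and 42.2% of all genes. CEBPB, a C/EBP factor of the inflammatory response, averaged 117 ± 1.44 CPM in Kyse150 shKDM2A and 50.7 ± 8.64 CPM in Kyse150 shNC (SD, n = 2 each). It averaged 30.7 ± 4.41 CPM in labelled TE11 shKDM2A (SD, n = 2) and 175 ± 13.5 CPM in TE11 shNC (SD, n = 3), and its change passed the test in both lines. CREB3L2, an ER-bound factor, rose in both, 1.69-fold and 9.27-fold. XBP1, of the unfolded protein response, rose 1.7-fold in Kyse150 and fell to 0.864 of control in labelled TE11 shKDM2A (edgeR adjusted p = 0.0206), and NFE2L3 rose 1.56-fold and 1.63-fold. ATF4, a factor of the integrated stress response, rose 1.23-fold in Kyse150 shKDM2A and fell to 0.488 of control in labelled TE11 shKDM2A. ATF6B fell to 0.27 of control in labelled TE11 shKDM2A and stood at 1.15-fold in Kyse150 (edgeR adjusted p = 0.135).

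Of the MAP kinases and other factors upstream of AP-1, 10 of 33 tested rose and 5 fell in Kyse150 shKDM2A (median log2 fold change 0.05), beside 24.8% and 23.3% of all genes. The 5 lower ones became 1 with DESeq2 and 2 or 3 when a Kyse150 library was left out. MAP3K12 and MAP3K5, kinases above JNK, rose 1.98-fold and 1.89-fold, and MAP2K1 and MAPK3, of the ERK cascade, 1.33-fold and 1.37-fold. In labelled TE11 shKDM2A 11 of 34 rose and 18 fell (median -0.29), beside 35.9% and 42.2% of all genes. MAP3K5 fell to 0.241, MAPK12 to 0.327 and RPS6KA1 to 0.429 of control, while ELK3, an ETS factor that binds with serum response factor, rose 2.48-fold.

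Of 27 immediate-early genes outside AP-1 tested in Kyse150, 16 rose and 4 fell in shKDM2A (median log2 fold change 0.65), beside 24.8% and 23.3% of all genes. CCN1, a secreted matrix protein, averaged 1720 ± 29.7 CPM in Kyse150 shKDM2A and 945 ± 5.62 CPM in Kyse150 shNC (SD, n = 2 each). PPP1R15A (GADD34), IER3 and BTG1 rose 1.85-fold, 1.79-fold and 2.85-fold. In TE11, 14 of 29 rose and 12 fell in labelled shKDM2A (median 0.03), beside 35.9% and 42.2% of all genes. CCN1 averaged 1010 ± 6.3 CPM in labelled shKDM2A (SD, n = 2) and 75.1 ± 1.64 CPM in shNC (SD, n = 3), KLF6 was 9.39-fold and PPP1R15A 3.12-fold higher, and BTG2 fell to 0.0958 of control.

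Genes reported as AP-1 targets were mixed. In Kyse150 shKDM2A 11 of 24 tested rose and 5 fell (median log2 fold change 0.17), beside 24.8% and 23.3% of all genes. CCND1, the G1 cyclin, fell to 0.556 and CAV1, the coat protein of caveolae, to 0.652 of control, while the hyaluronan receptor CD44 rose 1.61-fold and the laminin chain LAMB3 1.67-fold. In labelled TE11 shKDM2A 15 of 27 rose and 10 fell (median 0.64), beside 35.9% and 42.2% of all genes. AXL, a receptor tyrosine kinase, averaged 683 ± 27.1 CPM in labelled TE11 shKDM2A (SD, n = 2) and 57.7 ± 0.931 CPM in TE11 shNC (SD, n = 3), and TNC, a matrix glycoprotein, and CD44 were 5.49-fold and 2.51-fold higher. In Kyse150, where FOSL1 fell, AXL fell as well, to 530 ± 11.3 CPM in shKDM2A and 746 ± 24 CPM in shNC (SD, n = 2 each; edgeR adjusted p = 1.21e-08). No share of these lists was tested against other genes, and the lists were chosen with earlier results of these data known.

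**Figure D4:**
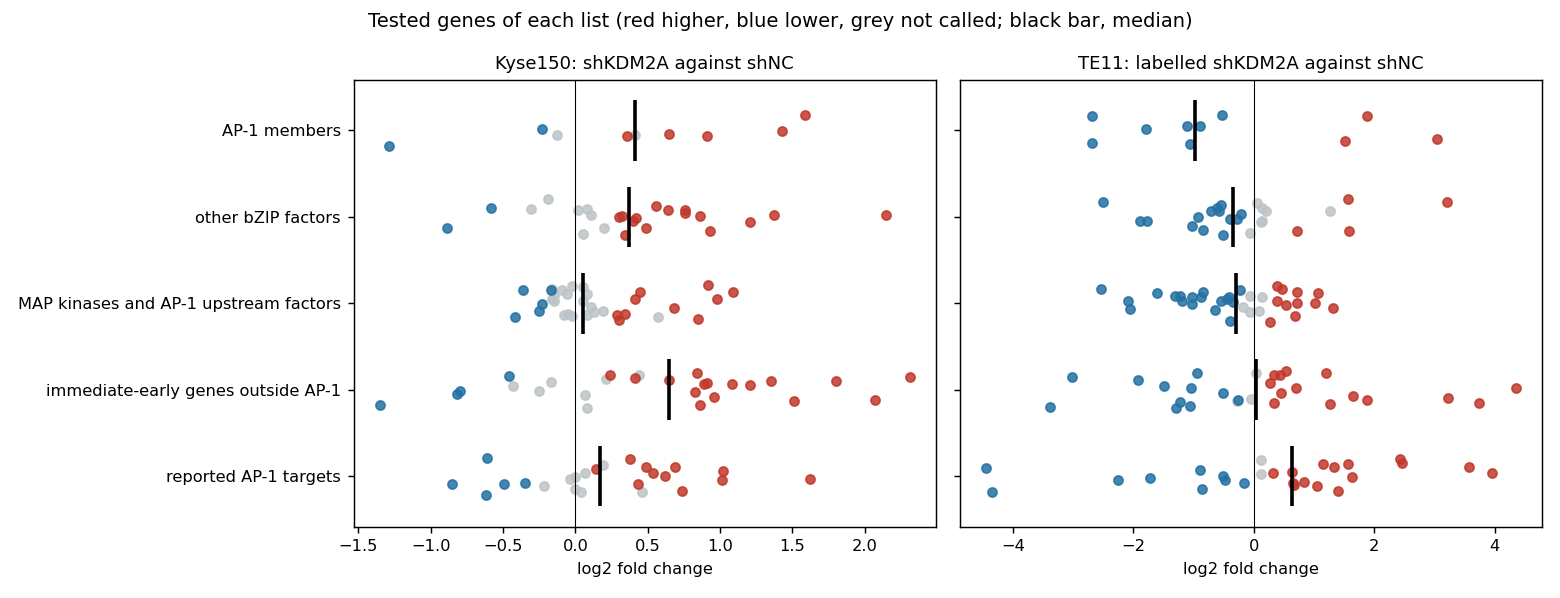
Log2 fold changes of the tested genes of 5 lists in Kyse150 (left) and TE11 (right), coloured by call, with the list median as a black bar; the horizontal axes differ in range, and genes at 0 counts in labelled TE11 shKDM2A are not drawn. The immediate-early genes have a median of 0.65 in Kyse150 and 0.03 in TE11, and the AP-1 members 0.41 and -0.97.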

How the data were processed

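The authors deposited raw fragment counts for each gene, with a separate table for each cell line. Tools named in the submitters' processing notes are HISAT2 2.1.0, HTSeq 0.9.1, bcl2fastq 2.19 and DESeq2. Those notes list 2 genome builds, GRCh38.p13 and GRCh37.p13, with no role for either. The strand setting is unknown here. The tables list 57820 and 60683 genes, so the lines were counted with different annotations. HTSeq's summary rows were left out. Between 42.3% and 44.5% of a library's fragments lay on no gene. The labels' protocols speak of 3 replicates, and 3 of the 4 groups hold 2 libraries here.

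Genes were kept by filterByExpr (minimum count 10, total 15), scaled by TMM and tested within each line with edgeR 4.0.16 in R 4.3.3 (robust quasi-likelihood, group as the only term), with p adjusted by Benjamini-Hochberg across every gene tested and called at 0.05. The difference of responses came from 1 fit of 9 libraries over shared genes. Fits were tested on simulated data. Coordinates and exon lengths are from GENCODE release 29, promoters from RefSeq. Repeat libraries of a group differed by more than counting noise (chi-square per degree of freedom 1.62 to 4.91). Depth limits FOS, FOSB and BATF3 most.

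The members, and the gene lists, were chosen with earlier results of these data known. All 10 members are named, and from each other list the 4 tested genes with the smallest p in each line, of which 1 is left out of the text. AXL in Kyse150, KRT7, EGFL7, SOX2 and HOOK2 were named after their values were seen. Alternatives were DESeq2 1.42.0, other scalings and filters, a replicate block, all 9 libraries in 1 fit, and leaving out each library.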

Additional observations from a re-analysis of the deposited data

Results flagged for a closer look

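The responses of 9 of the 10 AP-1 genes differed between the lines by a direct test (Kyse150 response minus response of the labelled TE11 libraries, log2; edgeR adjusted p from 1.38e-44 to 0.00999). The same contrast called 66.9% of all 15895 genes tested. The AP-1 differences were -4.35 for FOSL1, -2.03 for JUN, 3.57 for JDP2, 3.22 for BATF3, 2.46 for FOS, 2.42 for JUNB, 1.27 for FOSB, 0.87 for JUND and 0.85 for FOSL2. KDM2A itself differed by -0.90 in the same contrast, at 0.611 of control in Kyse150 shKDM2A and 1.12-fold in labelled TE11 shKDM2A. What these TE11 libraries hold was not tested, so the difference is one between libraries as labelled. No group holds 4 or more libraries, so no library was examined as an outlier within its group.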

How the results depend on the processing

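Of 369 recalculations of the AP-1 fold changes, 362 kept their direction and side of the threshold. DESeq2 called 2156 genes higher and 2181 lower in Kyse150, against 3490 and 3281 with edgeR, and left 1 lower bZIP factor (2 with edgeR) and 1 lower upstream factor (5 with edgeR). Leaving out each library gave 1 to 2 lower AP-1 members, 1 to 2 lower bZIP factors and 2 to 3 lower upstream factors in Kyse150, and the ATF3 difference between lines, which was not called, ranged from -0.06 to 0.14 (-0.06 without Kyse150 shNC replicate 2 and -0.01 without labelled TE11 shKDM2A replicate 1). The cause of these shifts was not tested. Same-numbered libraries did not deviate together from their group means (correlation -0.07 in Kyse150, -0.01 to 0.00 in TE11). No pairing by number thus shows in these values, which cannot exclude a pairing that leaves no shared deviation. With a replicate block 3301 genes were higher and 3094 lower in Kyse150, and 5607 and 6611 in TE11, and no AP-1 call changed. Scaling by library totals moved 5 group levels of AP-1 members by at least their SD and left 35 within it. Among those moved was FOSL1 in labelled TE11 shKDM2A, from 365 to 369 CPM, where the SD was 1.1 CPM.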
